A study of Mus musculus with 6 samples.

Results

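The genes described here are those whose symbol starts with Mrpl or Mrps followed by a number, the names used for proteins of the mitochondrial ribosome. They were taken by a rule on the symbol, chosen with earlier results of these data known. They number 83 of the 52636 rows of the deposited expression table, made up of 49 Mrpl genes, 29 Mrps genes and 5 pseudogenes. Their RNA was measured in neutrophils of the bone marrow of C57BL/6N mice aged 10 weeks, with 3 libraries under the label WT and 3 under LRP5-null, the latter from mice with floxed alleles of Lrp5 and Cre recombinase under the myeloid gene Lyz2 (LRP5f/f/Lyz2Cre+ in the labels). LRP5 is a membrane receptor that the study examined as a carrier of polyunsaturated fatty acids, and its transcriptome comparison asked which RNAs differ in neutrophils without it. Lyz2-Cre acts in monocytes and macrophages as well as in neutrophils. The methods state that wildtype mice were bought while the floxed line was backcrossed, and that mice were matched by age and gender. The paper describes WT littermates as controls in its heart injury experiments, but does not say this of the RNA libraries. No source used here says whether a library came from 1 mouse or from a pool, so p-values measure the spread between libraries only.

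The mitochondrial ribosome translates the few proteins encoded by mitochondrial DNA, all of them subunits of the respiratory chain and ATP synthase. Its 2 ribosomal RNAs are made in the mitochondrion, whereas every one of its proteins is encoded in the nucleus, translated in the cytosol and imported. Some of these proteins have a counterpart in the bacterial ribosome and others are found only in mitochondria. The symbols do not always give the place of a protein, since Mrps30 and Mrps18a encode proteins of the large subunit and Mrps36 encodes a component of the 2-oxoglutarate dehydrogenase complex. Mature neutrophils hold few mitochondria and rely largely on glycolysis, while their precursors in the bone marrow respire more.

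Promoter sequences are given first, because ribosomal protein genes of the mitochondrion are known for short promoters with sites for NRF1, ETS factors such as GABPA, and YY1. Windows of 300 bases, 250 before and 50 after the annotated start, were taken from RefSeq (GRCm38.p6) and matched 69 of the 78 genes that are not pseudogenes. On either strand, the letters GCGCATGC (NRF1) stood in 8 of these 69 promoters (11.6%), CCGGAAG (ETS) in 25 (36.2%) and AAGATGGC (YY1) in 12 (17.4%). The same letters stood in 5.89%, 21.5% and 5.56% of the 7266 promoters of all genes tested below, and in 2.80%, 9.12% and 2.88% of all 27025 promoters. At least 1 of the motifs was in 37 of 69 promoters (53.6%), against 30.0% of those of genes tested. The 4 promoters printed are those of the Mrpl and Mrps genes with the smallest p in the comparison below among promoters that hold a motif, 2 for each symbol, and capitals mark the motif letters, which do not overlap one another.
Mrpl33: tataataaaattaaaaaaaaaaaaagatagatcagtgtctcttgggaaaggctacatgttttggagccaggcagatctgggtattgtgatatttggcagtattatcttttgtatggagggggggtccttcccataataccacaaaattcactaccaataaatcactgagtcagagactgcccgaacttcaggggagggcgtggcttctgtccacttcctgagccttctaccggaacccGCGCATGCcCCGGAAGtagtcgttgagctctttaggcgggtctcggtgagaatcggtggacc
Mrpl52: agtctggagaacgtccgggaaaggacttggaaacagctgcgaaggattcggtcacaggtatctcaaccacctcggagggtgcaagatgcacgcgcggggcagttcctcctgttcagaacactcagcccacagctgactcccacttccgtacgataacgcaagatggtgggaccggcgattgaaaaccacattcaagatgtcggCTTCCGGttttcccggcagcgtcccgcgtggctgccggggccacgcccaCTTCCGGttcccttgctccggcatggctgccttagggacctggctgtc
Mrps18a: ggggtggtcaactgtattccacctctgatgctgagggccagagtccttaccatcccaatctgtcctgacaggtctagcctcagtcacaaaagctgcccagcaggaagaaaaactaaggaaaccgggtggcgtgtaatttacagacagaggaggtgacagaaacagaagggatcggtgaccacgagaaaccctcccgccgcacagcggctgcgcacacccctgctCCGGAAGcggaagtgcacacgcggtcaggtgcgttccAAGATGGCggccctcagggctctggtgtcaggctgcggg
Mrps24: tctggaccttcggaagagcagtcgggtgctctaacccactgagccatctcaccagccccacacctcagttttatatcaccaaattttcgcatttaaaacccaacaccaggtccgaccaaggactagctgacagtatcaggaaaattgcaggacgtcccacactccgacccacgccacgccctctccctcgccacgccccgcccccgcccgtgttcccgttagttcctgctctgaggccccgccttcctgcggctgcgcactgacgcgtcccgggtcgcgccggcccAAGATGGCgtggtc
The Mrpl33 window is chr5:31613701-31614000 on the plus strand and has the NRF1 letters followed after a single base by the ETS letters, across the annotated start. The Mrpl52 window is chr14:54426659-54426958 on the plus strand and has the ETS letters on the opposite strand at 2 places. The Mrps18a window is chr17:46110754-46111053 on the plus strand, with the ETS letters before the start and the YY1 letters after it. The Mrps24 window is chr11:5707652-5707951 on the minus strand, with the YY1 letters after the start.

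Levels are given in TPM, the unit of the deposited table, which divides reads by gene length and library total, so levels can be compared between genes. The Mrpl and Mrps genes spanned low to high levels in these neutrophils. Of the 78 genes that are not pseudogenes, 7 had a mean under 1 TPM, 20 lay from 1 to under 5 TPM, 38 from 5 to under 20 TPM and 13 at 20 TPM or more. Mrpl33, which encodes a small protein of the large subunit (bL33m), had the highest level, at 332, 327 and 340 TPM in WT replicates 1 to 3 and 385, 412 and 365 TPM in LRP5-null replicates 1 to 3. It alone held between 26.5% and 29.1% of the summed TPM of the Mrpl and Mrps genes of a library. Next in the large subunit were Mrpl24 and Mrpl20, and in the Mrps genes the highest means were those of Mrps21, Mrps18c and Mrps15.

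**Figure D1:**
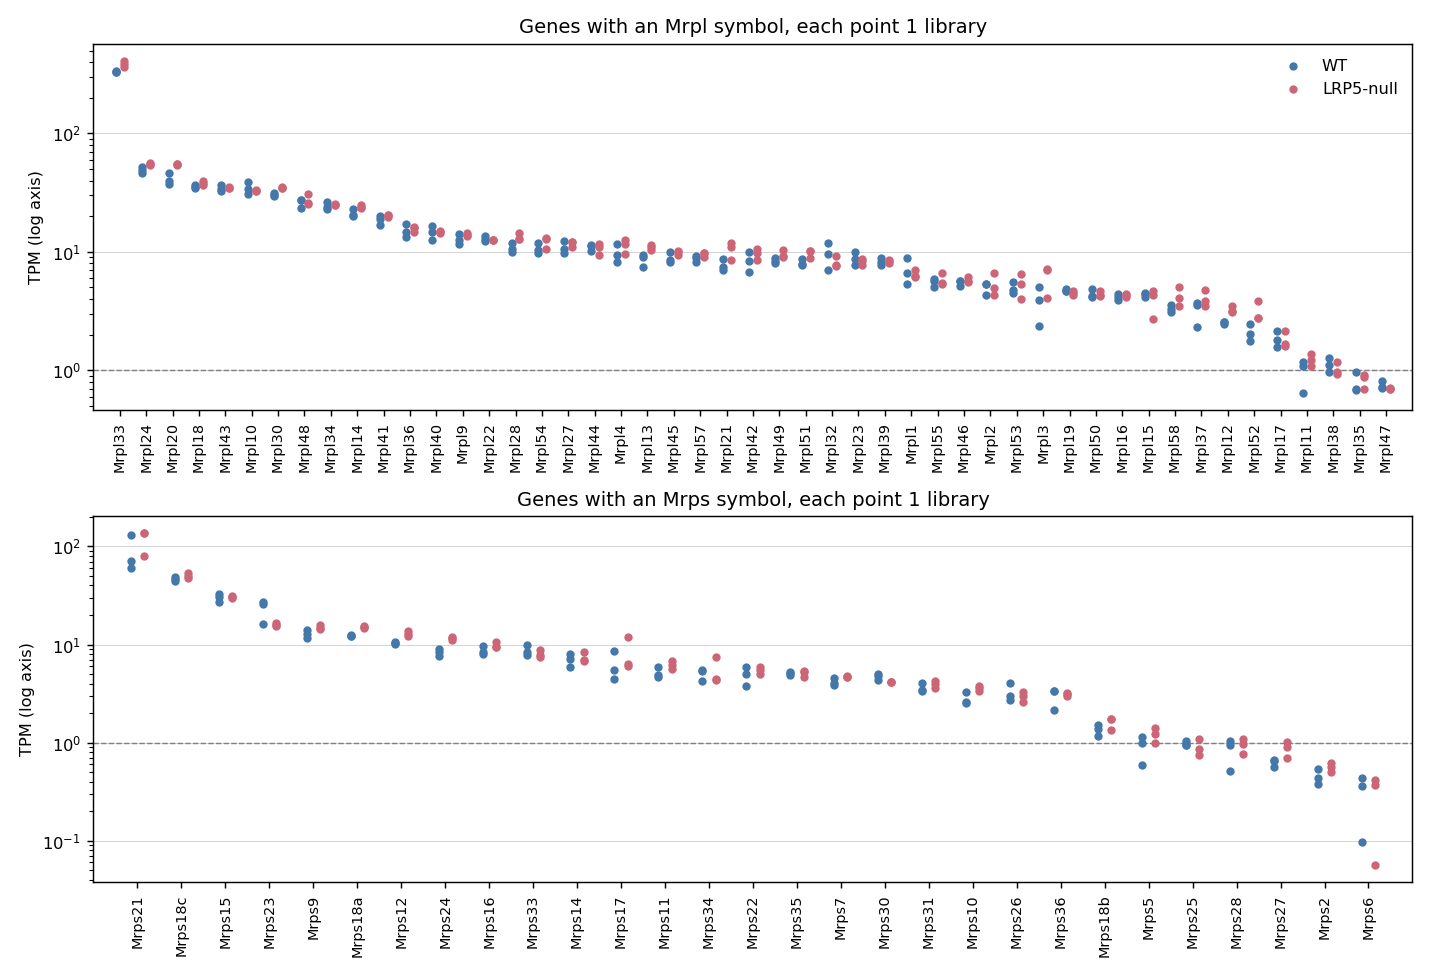
TPM of each Mrpl gene (upper panel) and Mrps gene (lower panel) that is not a pseudogene, on a log axis, with 1 point per library, WT blue and LRP5-null red, ordered by mean. The dashed line is the 1 TPM limit for testing, and Mrpl33 stands alone at the top between 327 and 412 TPM while most genes lie under 20 TPM with the 2 groups of points close together.

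The order of the genes by level was nearly the same in every library, with a Spearman correlation between 0.953 and 0.981 over 71 genes in the 15 pairs of libraries, which share their gene lengths and annotation. The 7 genes with a mean under 1 TPM were not tested. They were Mrpl35 and Mrpl47 in the large subunit, and Mrps2, Mrps6, Mrps25, Mrps27 and Mrps28 in the small subunit, with single values from 0.056 TPM in Mrps6 to 1.10 TPM in Mrps25. Of the pseudogenes, Mrps36-ps1 and Mrps36-ps3 were listed at 0 in every library, and Mrpl48-ps and Mrps36-ps2 did not exceed 0.026 TPM. Mrpl23-ps1 was listed at 7.73 to 9.87 TPM beside 7.73 to 10.1 TPM for its parent Mrpl23, so reads may have been split between them and both values are uncertain.

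Within a group, the median coefficient of variation of these genes was 9.19%, against 9.70% over all genes tested. Mrps17 (38.4%), Mrps21 (34.2%) and Mrpl3 (31.5%) varied most between libraries of the same label among the members tested. Mrps21, a small subunit protein (bS21m), was at 129.95, 71.6 and 60.0 TPM in WT and 80.2, 137 and 136 TPM in LRP5-null. High and low libraries thus occurred under both labels, and only 1.20% of genes tested with 20 TPM or more varied more than Mrps21. Mrps17 (uS17m) was at 4.502, 8.61 and 5.49 TPM in WT and 11.8, 6.09 and 6.35 TPM in LRP5-null, where 1 library of each group stood above its others. Mrps17 and Mrpl3 are named after their values had been seen.

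The libraries labelled LRP5-null were compared with those labelled WT by limma over the 9775 genes averaging 1 TPM or more, with Benjamini-Hochberg adjustment over all of them. Fold changes are on the scale of log2(TPM + 1), where those of low genes come out too small. The labels could not be checked by the targeted gene, since Lrp5 was at 1.12, 1.31 and 1.42 TPM in WT and 1.68, 1.77 and 2.07 TPM in LRP5-null, so each direction rests on the labels. Lyz2, in which the Cre is inserted, was lower in LRP5-null by limma, at -0.91 on the log2 scale (adjusted p = 0.00351). Read totals ran from 249841492 to 340580330 in the read summary, which lists paired-end reads with a length of 94 bases, whereas the methods name shorter single-end reads. Ribosomal RNA took 1.20% and 1.30% of reads in WT replicates 1 and 2, but 3.30% in WT replicate 3 and 2.69% to 2.98% in LRP5-null, and across genes the deviation of a library correlated with GC content at Spearman rho of -0.61 and -0.43 in WT replicates 1 and 2 and 0.33 to 0.44 in the other 4 libraries. WT replicate 3 thus resembled the LRP5-null libraries in both measures. In bulk RNA, fewer cells of a type and less RNA per cell cannot be told apart.

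No gene for a mitochondrial ribosomal protein passed an adjusted p of 0.05 between the labels. Small differences pointed mostly upward in LRP5-null: of the 72 members tested, 1 of them a pseudogene, 56 (77.8%) had a positive log2 fold change, against 58.8% of all genes tested. Their median log2 fold change was 0.11, with 0.11 over 47 Mrpl genes and 0.15 over 24 Mrps genes, against 0.04 over all genes. The smallest adjusted p was 0.0679, for Mrps24. By the same rule 52 of all genes tested (0.532%) were called, so that a count of 0 among 72 genes lies near that background.

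At an unadjusted p under 0.05, 15 members (20.8%) had higher values in LRP5-null and 1 (1.39%) lower values, against 14.4% and 9.12% of all genes tested. In both directions together this was 22.2% of members and 23.5% of all genes, a share near the background. The split by direction changed with processing. With the ribosomal RNA share as a covariate, 16 of 72 members were higher and 4 lower (18.1% of all genes in both directions). After removal of GC and length trends, 9 of 70 members were higher and 6 lower (25.9% of all genes in both directions). Every LRP5-null library was above every WT library in 18 members (25.0%), against 17.4% of all genes tested, and below in 2 (2.78%), against 12.3%. These 2 were Mrps30, described below, and Mrpl19, named for this reason, at 4.86, 4.64 and 4.65 TPM in WT and 4.63, 4.34 and 4.53 TPM in LRP5-null (log2 fold change -0.06). With 3 libraries against 3, an exact permutation test of a single gene cannot give a p under 0.1.

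**Figure D2:**
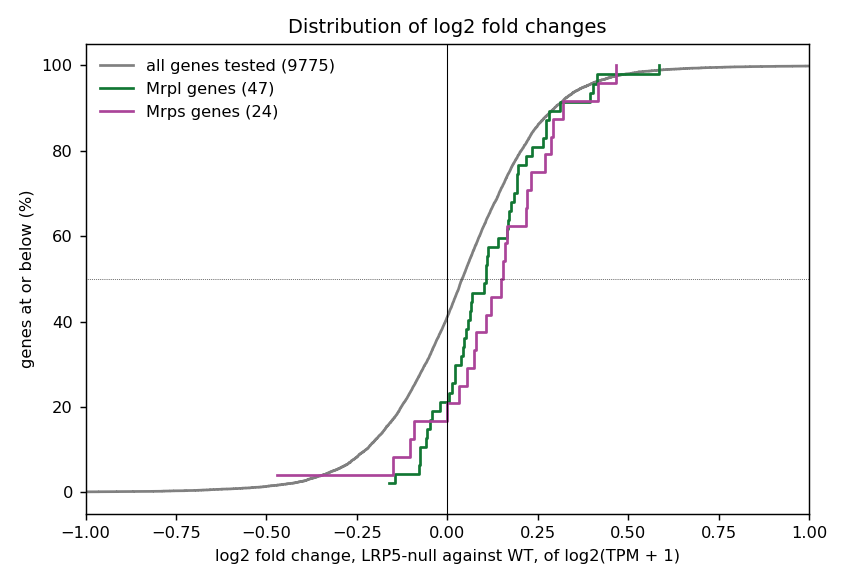
Cumulative distribution of log2 fold changes, LRP5-null against WT, for all genes tested (grey), Mrpl genes (green) and Mrps genes (purple); the vertical axis is the percent of genes at or below each value. The dotted line at 50% is crossed at 0.04 by all genes, 0.11 by the Mrpl genes and 0.15 by the Mrps genes, and the curves draw together at the upper end.

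The summed level of the Mrpl and Mrps genes was 1249, 1178 and 1222 TPM in WT and 1342, 1415 and 1355 TPM in LRP5-null, or 1216 ± 36.0 and 1370.5 ± 39.2 TPM (SD, n = 3). Every LRP5-null library was above every WT library in this sum. Without Mrpl33 and Mrps21, the most abundant gene of each symbol, the sums were 797 ± 22.4 TPM in WT and 866 ± 11.03 TPM in LRP5-null (SD, n = 3), again without overlap. The Mrpl sum was 898, 893 and 934 TPM in WT and 1019, 1043 and 988 TPM in LRP5-null. The Mrps sum was 352, 285 and 288 TPM in WT and 323, 372 and 367 TPM in LRP5-null, and here WT replicate 1 lay within the LRP5-null range with its high value of Mrps21. The ratio of the Mrpl sum to the Mrps sum overlapped between labels, at 2.98 ± 0.37 in WT and 2.89 ± 0.24 in LRP5-null (SD, n = 3).

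**Figure D3:**
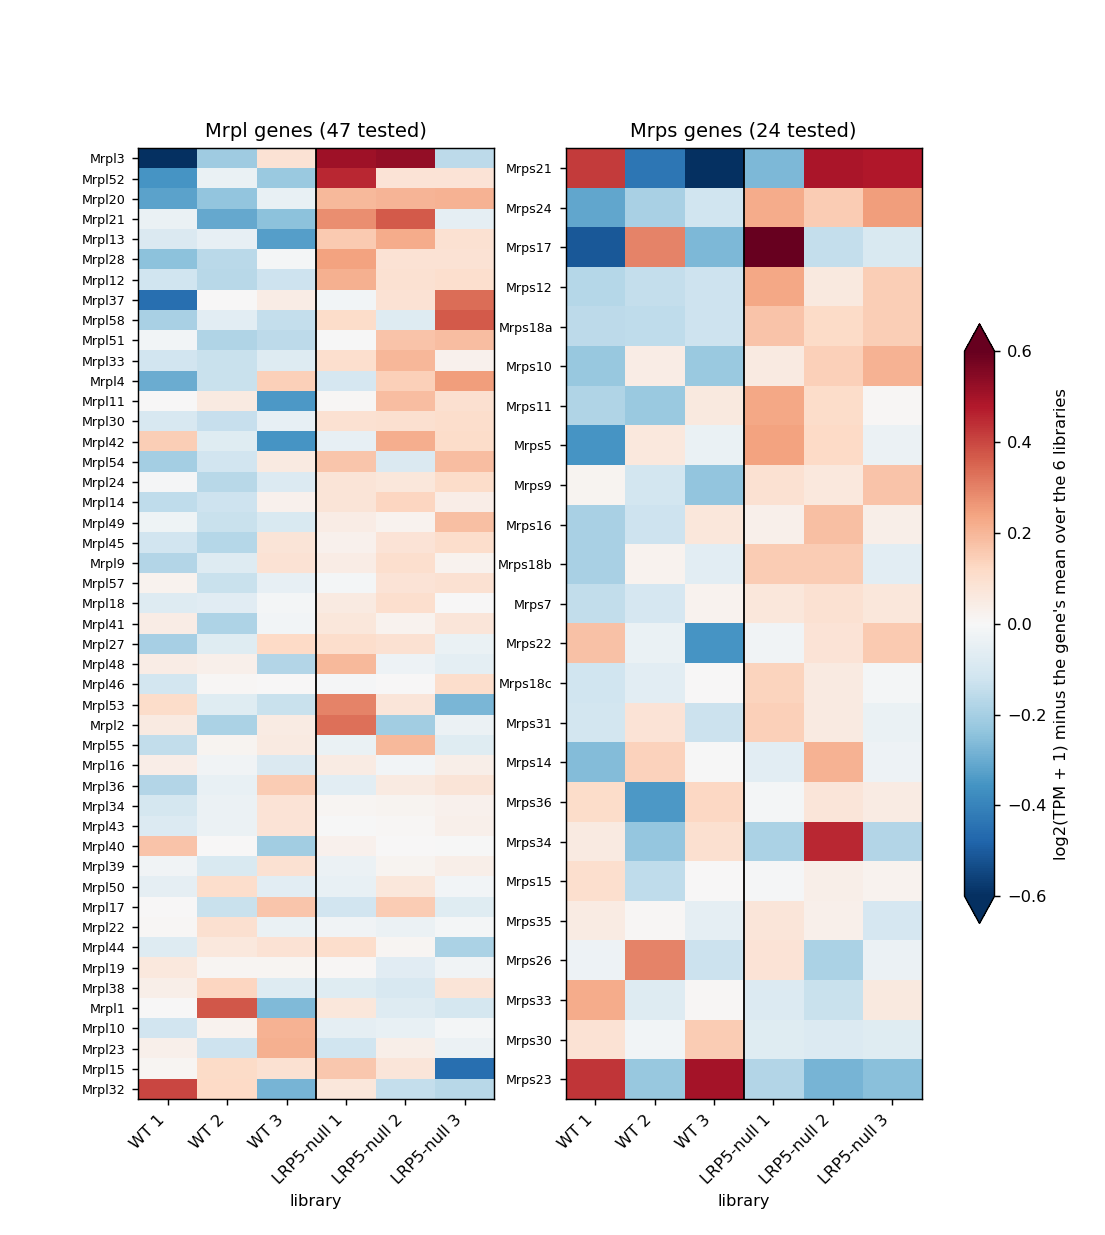
Deviation of log2(TPM + 1) from the mean of each gene over the 6 libraries, for the 47 Mrpl genes (left) and 24 Mrps genes (right) tested, with genes ordered by log2 fold change and colours running from blue (lower) to red (higher) and saturating at the ends of the scale. The 3 WT columns are blue over much of each panel and the LRP5-null columns pale red, while Mrps21 and Mrps17 are dark in columns of both labels.

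Among large subunit proteins with a bacterial counterpart, 20 of 28 genes tested had a positive log2 fold change and 8 had an unadjusted p under 0.05, all higher in LRP5-null (28.6%, background 14.4%). Mrpl20 (bL20m; chromosome 4, 155177645 to 155183885, plus strand of NCBIM37, the mm9 build the methods name) was at 37.7, 40.0 and 45.9 TPM in WT and 54.3, 54.7 and 54.8 TPM in LRP5-null. Its LRP5-null values lay within a narrow range and above every WT value (log2 fold change 0.40, standard error 0.085, limma adjusted p = 0.0836). Mrpl12, the stalk protein that corresponds to bacterial L7/L12, was a low gene at 2.57, 2.46 and 2.55 TPM in WT and 3.49, 3.13 and 3.16 TPM in LRP5-null (log2 fold change 0.27, standard error 0.077, limma adjusted p = 0.124). Its groups did not overlap. Mrpl33, printed above by library, had no overlap either (log2 fold change 0.22, standard error 0.067, limma adjusted p = 0.138).

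Mrpl13 (uL13m) was at 9.07, 9.33 and 7.49 TPM in WT and 10.9, 11.5 and 10.4 TPM in LRP5-null (log2 fold change 0.31, limma adjusted p = 0.140). Mrpl28 (bL28m) was at 9.96, 10.6 and 11.9 TPM in WT and 14.4, 12.8 and 12.8 TPM in LRP5-null (log2 fold change 0.28, limma adjusted p = 0.149). Mrpl24 (uL24m), of the second highest mean among Mrpl genes, was at 51.6, 46.2 and 48.9 TPM in WT and 54.7, 54.4 and 56.1 TPM in LRP5-null (log2 fold change 0.17, limma adjusted p = 0.195). In all of these the WT values stopped short of the LRP5-null values, and the distances were small beside the level of the gene. Mrpl3 (uL3m) had the largest absolute log2 fold change of any member tested, 0.58, but its values of 2.38, 3.90 and 5.05 TPM in WT and 7.08, 7.19 and 4.10 TPM in LRP5-null overlapped (limma adjusted p = 0.217).

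The 2 Mrpl genes of smallest p among those with a negative log2 fold change were Mrpl32 and Mrpl15, neither of which separated the labels. Mrpl32, whose protein is matured by the mitochondrial m-AAA protease, was at 11.8, 9.56 and 7.01 TPM in WT and 9.18, 7.80 and 7.66 TPM in LRP5-null (log2 fold change -0.16, limma adjusted p = 0.583). Its WT values covered the whole LRP5-null range, and its log2 fold change was -0.0015 without WT replicate 1 and -0.34 without WT replicate 3. Mrpl15 was at 4.14, 4.52 and 4.43 TPM in WT and 4.71, 4.36 and 2.72 TPM in LRP5-null (log2 fold change -0.14, limma adjusted p = 0.604), a difference carried by LRP5-null replicate 3: without that library its log2 fold change was 0.05.

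Of the large subunit proteins found only in mitochondria, here with Mrps30 and Mrps18a, 18 of 21 had a positive log2 fold change and 3 an unadjusted p under 0.05, all higher in LRP5-null (14.3%, background 14.4%). Mrps18a (mL66; chromosome 17, 46247935 to 46265859, plus strand, NCBIM37) was at 12.1, 12.2 and 12.4 TPM in WT and 15.5, 14.8 and 15.2 TPM in LRP5-null (log2 fold change 0.29, standard error 0.067, limma adjusted p = 0.0956). Both groups were tight and apart. Mrpl52 (mL52) was at 1.77, 2.44 and 2.03 TPM in WT and 3.84, 2.75 and 2.75 TPM in LRP5-null (log2 fold change 0.41, standard error 0.13, limma adjusted p = 0.147). Mrps30 (mL65) went the other way, at 4.77, 4.37 and 5.02 TPM in WT and 4.16, 4.12 and 4.16 TPM in LRP5-null (log2 fold change -0.15, standard error 0.078, limma adjusted p = 0.288). The Mrps30 groups did not overlap, although WT replicate 2 came close to the LRP5-null values.

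**Figure D4:**
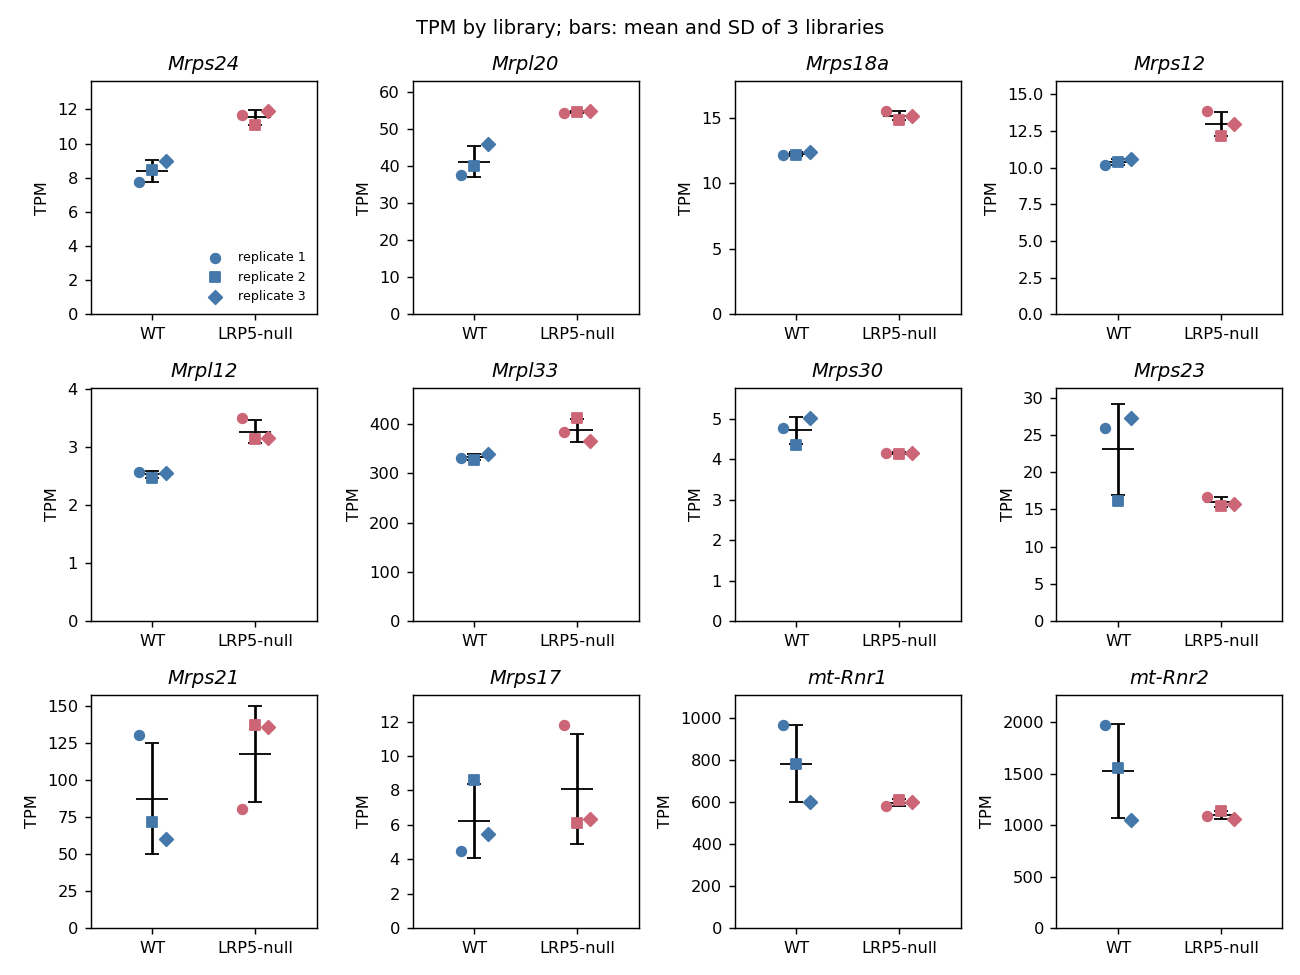
TPM by library of 10 genes for mitochondrial ribosomal proteins and the 2 mitochondrial ribosomal RNAs, each axis starting at 0, with bars for the mean and SD of 3 libraries and a symbol for each replicate number. Mrps24, Mrpl20, Mrps18a, Mrps12, Mrpl12 and Mrpl33 have every LRP5-null library above every WT library, Mrps30 the reverse, and the remaining panels overlap.

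Small subunit proteins with a bacterial counterpart were the class with the most even direction: 13 of 13 genes tested had a positive log2 fold change, of the 16 listed, with a median of 0.22, and 4 had an unadjusted p under 0.05, all higher in LRP5-null (30.8%, background 14.4%). Mrps24, the counterpart of bacterial S3 (chromosome 11, 5603986 to 5615683, minus strand, NCBIM37), was at 7.73, 8.47 and 8.98 TPM in WT and 11.6, 11.1 and 11.9 TPM in LRP5-null (log2 fold change 0.42, standard error 0.081, limma adjusted p = 0.0679). The gap between its groups was wider than the spread within either. Mrps12, part of the decoding centre and the counterpart of bacterial S12, was at 10.2, 10.4 and 10.6 TPM in WT and 13.8, 12.1 and 12.9 TPM in LRP5-null (log2 fold change 0.29, standard error 0.076, limma adjusted p = 0.111). In NCBIM37 it occupies 29524660 to 29526839 of chromosome 7, minus strand.

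Mrps10 (uS10m) was at 2.56, 3.31 and 2.58 TPM in WT and 3.33, 3.61 and 3.81 TPM in LRP5-null (log2 fold change 0.27, limma adjusted p = 0.179). Mrps9 (uS9m) was at 14.0, 12.8 and 11.6 TPM in WT and 14.8, 14.5 and 15.7 TPM in LRP5-null (log2 fold change 0.22, limma adjusted p = 0.193). In both genes the highest WT library came close to the lowest LRP5-null library. Mrps15 (uS15m), among the most abundant Mrps genes, averaged 30.0 ± 2.70 TPM in WT and 30.6 ± 0.48 TPM in LRP5-null (SD, n = 3; log2 fold change 0.03, standard error 0.082), and its sign was negative under median-ratio scaling. For Mrps21 the estimate was 0.47 on the log2 scale and its standard error 0.31 (limma adjusted p = 0.392), so its large mean difference was within the spread between libraries.

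Small subunit proteins found only in mitochondria had no common direction, with 4 of 8 genes tested above 0, a median log2 fold change of 0.03 and 1 gene at an unadjusted p under 0.05, which was lower in LRP5-null (12.5%, background 9.12%). That gene was Mrps23 (mS23; chromosome 11, 88017890 to 88025009, plus strand, NCBIM37), at 25.9, 16.1 and 27.2 TPM in WT and 16.7, 15.5 and 15.8 TPM in LRP5-null (log2 fold change -0.47, standard error 0.18, limma adjusted p = 0.184). WT replicate 2 lay within the LRP5-null range, so the difference came from the other 2 WT libraries. Mrps30 and Mrps23 were the 2 Mrps genes of smallest p among those with a negative log2 fold change. The difference between the classes itself was not tested.

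The 3 paralogs of bacterial S18 had well separated levels. Mrps18c (bS18m) averaged 46.3 ± 2.03 TPM in WT and 50.4 ± 2.61 TPM in LRP5-null, Mrps18a 12.2 ± 0.14 and 15.1 ± 0.34 TPM, and Mrps18b (mS40) 1.34 ± 0.17 and 1.62 ± 0.22 TPM (SD, n = 3). Their order held in every library. Their log2 fold changes were 0.12 for Mrps18c (standard error 0.072), 0.29 for Mrps18a (0.067) and 0.16 for Mrps18b (0.10). Mrps36, the subunit of 2-oxoglutarate dehydrogenase, was at 3.34, 2.16 and 3.38 TPM in WT and 2.98, 3.23 and 3.15 TPM in LRP5-null (log2 fold change 0.07, standard error 0.13), with a negative sign under quantile normalisation and without WT replicate 2.

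No gene of the partner lists passed the adjusted test, which 0.532% of all genes tested passed. Over all genes tested, 58.8% had a positive log2 fold change (median 0.04) and 23.5% an unadjusted p under 0.05. Of the mitochondrial ribosomal proteins without an Mrp symbol, 4 of 5 had a positive log2 fold change (median 0.09) and 0 an unadjusted p under 0.05. Dap3, a GTP-binding protein of the small subunit, had a log2 fold change of 0.27 (standard error 0.16), Gadd45gip1 in the large subunit 0.08 (0.082, with a negative sign under quantile normalisation) and Ptcd3 in the small subunit -0.09 (0.12). Of the factors that assemble the mitochondrial ribosome, 18 of 26 were tested and 13 were positive (median 0.06). Only 1 (5.56%, below the background of 23.5%) had an unadjusted p under 0.05, the RNA helicase Ddx28 (log2 fold change 0.24, limma adjusted p = 0.186). Mpv17l2 had 0.18 (limma adjusted p = 0.245) and Mterf3, which acts in assembly of the large subunit, -0.25 (limma adjusted p = 0.244). Among factors of mitochondrial translation, 13 of 15 were tested, 7 were positive (median 0.0033) and 0 had an unadjusted p under 0.05. The elongation factor Gfm1 had a log2 fold change of 0.17, the RNA-binding protein Lrpprc 0.15 and the membrane insertase Oxa1l 0.14.

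The TPM values of the ribosomal RNAs of the same particle had lower means in LRP5-null. Ribosomal RNA took only 1.2% to 3.3% of reads in these libraries, so these values may not give the amount of these RNAs in the cells. WT replicates 1 and 2, the highest in both RNAs, were the libraries with 1.2% and 1.3%. The small subunit RNA mt-Rnr1 was at 968, 779.98 and 601 TPM in WT and 579.6, 612 and 599.9 TPM in LRP5-null (log2 fold change -0.36, limma adjusted p = 0.212). The large subunit RNA mt-Rnr2 was at 1974, 1553 and 1054 TPM in WT and 1092, 1142 and 1062 TPM in LRP5-null (log2 fold change -0.43, limma adjusted p = 0.242). WT replicate 3, the WT library with the LRP5-null-like ribosomal share of reads, was just below the LRP5-null values in mt-Rnr2 and among them in mt-Rnr1. Without it both RNAs passed an adjusted p of 0.05 (log2 fold changes -0.54 and -0.67, limma adjusted p = 0.0190 and 0.0149), as did 19.6% of all genes tested. Against WT replicate 3 alone, the log2 fold change of mt-Rnr2 was 0.06.

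These values depended in part on WT replicate 3 and on transcript properties. Leaving out WT replicate 3 brought 6 members past an adjusted p of 0.05 (Mrps24, Mrpl20, Mrps18a, Mrps12, Mrpl28 and Mrpl30, all higher in LRP5-null; 8.33%), but also 19.6% of all genes tested. Against WT replicate 3 alone, the medians were 0.07 for Mrpl genes and 0.07 for Mrps genes, against -0.0065 over all genes. The members have short transcripts, with a median length of 1199 bases against 2926 bases over all genes tested and a GC content of 51.5% against 49.98%. After removal of GC and length trends from each library, 42 of 70 members (60.0%) had a positive log2 fold change against 49.4% of all genes, with medians of 0.02 for Mrpl genes and 0.11 for Mrps genes against -0.0023 over all genes, and 2 members (2.86%), Mrps24 and Mrpl51, passed an adjusted p of 0.05, against 4.70% of all genes. In that fit the log2 fold change was 0.28 for Mrps24, 0.22 for Mrpl52, 0.15 for Mrpl12, 0.13 for Mrps18a and for Mrps12, 0.12 for Mrpl28 and 0.05 for Mrps18b, each smaller than the value given above. Other named members were farther from 0 than without that removal. Among them were Mrpl3 (0.60), Mrpl51 (0.31), Mrps9 (0.25), Mrps18c (0.14), Mrps30 (-0.22) and Mrps23 (-0.54). With median-ratio scaling, 50 of 72 members were positive against 50.6% of all genes, and with quantile normalisation 46 of 72 against 50.5%. Mrpl30 and Mrpl51 are named here because of these values.

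**Figure D5:**
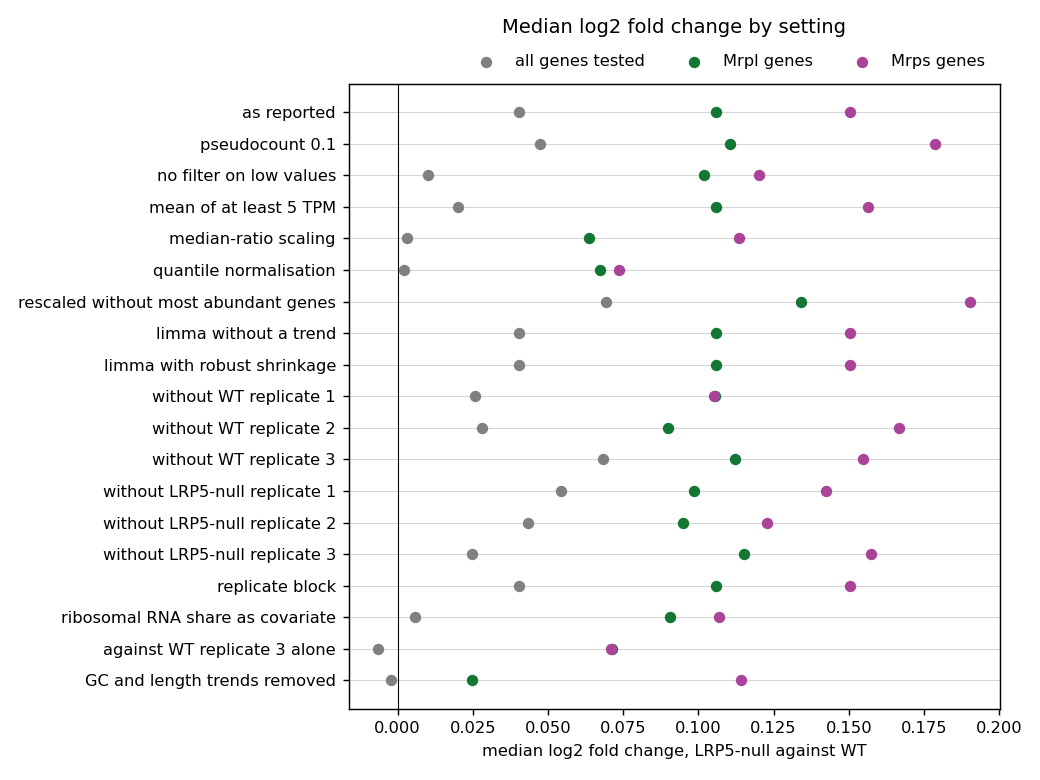
Median log2 fold change, LRP5-null against WT, of all genes tested (grey), Mrpl genes (green) and Mrps genes (purple) under each processing setting. Both symbols stay above all genes in each setting shown, and the Mrpl median is smallest, at 0.02, after removal of GC and length trends.

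Markers of neutrophil maturity and of cell division also differed between the labels without passing the adjusted test. Of 16 genes of immature neutrophils, 9 (56.2%, background 17.4%) had every LRP5-null library above every WT library and 0 passed the adjusted test (median log2 fold change 0.21), with a summed level of 74085 to 81641 TPM in WT and 76878 to 81152 TPM in LRP5-null. Of 15 proliferation genes the same held for 8 (53.3%), with 0 past the adjusted test (median 0.16), at 226 to 230.2 TPM in WT and 250.04 to 257 TPM in LRP5-null. Of 14 genes of mature neutrophils, 8 (57.1%, background 12.3%) had every LRP5-null library below every WT library and 0 passed (median -0.16; 40456 to 44542 TPM in WT, 38924 to 40277 TPM in LRP5-null). The defining neutrophil markers summed to 375489 to 421002 TPM in WT and 401386 to 421116 TPM in LRP5-null. Most of it was S100a9 (201108 and 227472 TPM on average in WT and LRP5-null) and S100a8 (134371 and 120021 TPM). Of the 11 rows of that list, 4 had a positive and 7 a negative log2 fold change, and 0 passed. Without overlap, 1 was above (9.09%, background 17.4%) and 2 below (18.2%, background 12.3%) in LRP5-null. The part of all these markers in the differences of the members was not tested.

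Markers of other cells were summed in the same way. T and NK cell genes summed to 10.8 to 11.9 TPM in WT and 14.7 to 16.3 TPM in LRP5-null, where 7 of 8 were below 1 TPM and Cd3d made up most of the sum. B cell genes summed to 13.4 to 15.3 and 13.5 to 14.6 TPM, erythroid genes to 48.4 to 57.3 and 42.9 to 54.3 TPM, monocyte and macrophage genes to 620.3 to 787 and 693 to 755 TPM (most of it Ly6c2, at 607 and 609 TPM on average), and eosinophil and basophil genes to 13.3 to 16.1 and 16.6 to 17.7 TPM, in WT and LRP5-null. Of the macrophage genes, C1qb averaged 2.54 ± 0.12 TPM in WT and 3.82 ± 0.27 TPM in LRP5-null, Adgre1 11.4 ± 1.16 and 14.9 ± 0.65 TPM, and C1qa 3.66 ± 0.25 and 4.49 ± 0.27 TPM (SD, n = 3), each without overlap (limma adjusted p = 0.0648, 0.103 and 0.160). In the eosinophil and basophil list, 1 of 4 genes tested was called, Prg2, at 1.02 ± 0.16 TPM in WT and 2.79 ± 0.41 TPM in LRP5-null (SD, n = 3; limma adjusted p = 0.0341; not followed through other settings), and the log2 fold changes of Siglecf, Prss34 and Mcpt8 were 0.03, 0.0037 and -0.05. Epx was also without overlap, but low, at 0 to 0.034 TPM in WT and 0.067 to 0.14 TPM in LRP5-null. Whether these cells contributed to the members' values was not tested.

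By position the members were spread over 17 chromosomes, with 81 of 83 placed in GENCODE M1 (NCBIM37). Some stood head to head with another gene, that is, on opposite strands with starts within 1000 bp of each other: 17 of 78 (21.8%), against 12.5% of 8750 protein-coding genes tested. In the 11 pairs with both genes tested, the median log2 fold change was 0.11 for the members and 0.07 for their neighbours, 8 of the 11 neighbours were positive, and 0 passed the adjusted test. Mrpl49 and Fau, a cytosolic ribosomal protein gene 135 bp away, had log2 fold changes of 0.16 and 0.16. Mrpl51 and the condensin gene Ncapd2, 206 bp apart, had 0.23 and 0.42, while Mrpl32 and the proteasome gene Psma2, 217 bp apart, had -0.16 and 0.06. The widest difference in a pair was that of Mrpl30 and Mitd1, 66 bp apart, at 0.19 and -0.40. These pairs were picked after their values had been seen.

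The promoter motifs did not sort the members by their differences in 1 direction. Over the 63 members both matched and tested, the median log2 fold change was -0.0040 with the NRF1 letters (8 genes) and 0.14 without (55 genes), 0.13 with the ETS letters (24 genes) and 0.11 without (39 genes), and 0.21 with the YY1 letters (10 genes) and 0.11 without (53 genes). The promoters of members had a median GC content of 58.3% and 21 CpG, against 61.0% and 22 for all genes tested. These medians are descriptions and were not tested.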

How the data were processed

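RNA of 6 libraries (3 labelled WT, 3 labelled LRP5-null) was analysed. The labels name a Percoll gradient and an mRNA kit; the methods name cell sorting on CD11b and Ly6G and a stranded total RNA kit. The authors aligned reads to mm9, name a DESeq2 pipeline and deposited TPM, each library summing to 1000000 over the genes listed; the tool that made TPM is not given in the sources used here. A read summary, also from the authors, holds counts of reads, percent of reads by class, the ratio of coverage at transcript ends and a coverage variation score. TPM keeps no depth, so errors come only from the spread between libraries.

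All genes averaging 1 TPM or more entered 1 fit in limma (version 3.58.1; R 4.3.3), with a pseudocount of 1, a trend of variance on mean and no covariate. The members and gene lists were chosen with earlier results of these data known. Named were, for each symbol, the 6 genes of smallest p, the 3 of highest mean and the 2 of smallest p below 0, with the S18 paralogs, Mrps30, Mrps36, both ribosomal RNAs, 3 genes of each partner list, untested members, Lrp5 and Lyz2. In a test on simulated data for 9775 genes with 200 changed, 45.5% of log2 changes of 0.5 and 87.5% of changes of 1 were recovered, with 8 and 6 false calls. The simulated noise was independent between genes and libraries, without the GC-linked deviations of the real libraries, so these figures may not hold for them. No change between 0 and 0.5 was simulated. Transcript length, GC content and coordinates came from GENCODE M1 (NCBIM37), an older annotation than the identifiers of the table, and promoters from RefSeq (GRCm38.p6). Alternatives were a pseudocount of 0.1, no filter or one of 5 TPM, other scalings and limma settings, leaving out libraries in turn, a replicate block, the ribosomal share as a covariate, WT replicate 3 alone, and removal of GC and length trends by loess (span 0.5). Python 3.11.15 and pandas 2.3.3 were used.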

Additional observations from a re-analysis of the deposited data

Results flagged for a closer look

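Mrps27, an RNA-binding protein of the small subunit, had too low a mean to be tested, yet each LRP5-null library was above each WT library: 0.656, 0.571 and 0.660 TPM in WT and 0.693, 1.01 and 0.899 TPM in LRP5-null, with a mean of 0.868 TPM in LRP5-null. In the read summary, the share of reads in introns, which was used in no comparison of genes, was 8.60%, 7.78% and 9.0% in WT and 10.95%, 11.23% and 10.62% in LRP5-null, with means of 8.46% and 10.9%. No overlap between labels was seen in either measure, and neither difference was tested. The other untested member without overlap, Mrpl47 of the large subunit, lay the opposite way, at 0.722, 0.814 and 0.708 TPM in WT and 0.703, 0.698 and 0.689 TPM in LRP5-null.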

How the results depend on the processing

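In 18 alternative fits the medians stayed positive and the count of members past an adjusted p of 0.05 stayed at 0, except for 1 when TPM was rescaled without the mitochondrially encoded and the 20 most abundant genes (Mrps24), 2 after removal of GC and length trends, and 0 to 6 when a library was left out (6 without WT replicate 3). Over all genes, 0.986% passed when rescaled, 4.70% after removal of trends and 19.6% without WT replicate 3. The count of members at an unadjusted p under 0.05 ranged from 8 to 21 of 72 when a library was left out, against 16. The 8 were without LRP5-null replicate 2 (13.8% of all genes) and the 21 without WT replicate 3 (38.4% of all genes), against 23.5% of all genes with every library. The medians of all members, Mrpl genes and Mrps genes were 0.070, 0.064 and 0.11 under median-ratio scaling, 0.070, 0.067 and 0.074 under quantile normalisation, 0.14, 0.13 and 0.19 when rescaled, 0.069, 0.071 and 0.071 against WT replicate 3 alone, and 0.055, 0.025 and 0.11 after removal of GC and length trends. The Mrps median was 0.11 with the ribosomal share as a covariate and 0.11 to 0.17 when a library was left out. The cause of these shifts was not tested.

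Small log2 fold changes turned sign in 17 cases: Gadd45gip1 under quantile normalisation (-0.026) and after removal of GC and length trends (-0.0091), Mpv17l2 after that removal (-0.0066), Mrpl15 without LRP5-null replicate 3 (0.046; -0.26 to 0.046 over left-out libraries), Mrpl32 with the covariate (0.10) and against WT replicate 3 alone (0.20), Mrps15 under median-ratio scaling (-0.011), without WT replicate 2 (-0.035; -0.035 to 0.091 over left-out libraries) and after removal of trends (-0.10), Mrps36 under quantile normalisation (-0.016), without WT replicate 2 (-0.080; -0.080 to 0.15 over left-out libraries), with the covariate (-0.031) and against WT replicate 3 alone (-0.087), Ptcd3 with the covariate (0.074), against WT replicate 3 alone (0.15) and after removal of trends (0.018), and mt-Rnr2 against WT replicate 3 alone (0.059). None of these was past the threshold in either fit. The 17 cases were counted only among genes named by the rule given above, and mt-Rnr2, at -0.43 in the main fit, was not small. Members outside that count also changed sign between settings, among them Mrpl1 (-0.23 to 0.23) and Mrpl40 (-0.10 to 0.22). Others kept their sign, such as Mrpl21 (0.29 to 0.52). Lyz2 lost its call without a filter (limma adjusted p = 0.123).

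With the replicate number as a block, 0 members passed an adjusted p of 0.05, and 4 of all genes were called against 52. At an unadjusted p of 0.05 it was 14 of 72 members, beside 23.5% of all genes. Deviations of same-numbered libraries correlated at 0.23, -0.0075 and 0.13, so the numbers were not taken as pairs. WT replicate 2 correlated better with LRP5-null replicate 3 (0.022) than with its own number. TPM gives no counts, so changes of this size in genes near 1 TPM were not resolved here.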

Other observations

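On chromosome 19, which carries the floxed Lrp5 gene (3584825 to 3686564 in NCBIM37), lie 5 members. Mrpl21, the nearest at 292 kb, was at 8.68, 7.06 and 7.40 TPM in WT and 11.1, 11.9 and 8.60 TPM in LRP5-null, so that LRP5-null replicate 3 fell within the WT range (log2 fold change 0.40, standard error 0.13, limma adjusted p = 0.149). Mrpl11, at 1276 kb, had a log2 fold change of 0.19 (standard error 0.12), Mrpl49, at 2367 kb, 0.16 (0.080), Mrpl16, at 8158 kb, 0.04 (0.076) and Mrpl43, at 41393 kb, 0.02 (0.071). None of the 5 passed the adjusted test, these genes were picked after their values had been seen, and no relation to distance was tested.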
